A study of Mus musculus with 8 samples.

Results

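Regulatory T cells (Tregs) and conventional CD4+ T cells (Tconvs) were compared after both subsets had lived under constant CD27 engagement. The comparison rests on 4 of the 8 libraries of the series, 2 of Tregs and 2 of Tconvs, all from CD70Tg mice. A row of the expression table was used when it reached 60 in at least 2 of these 4 libraries and did not carry the name of a genomic clone. Of the 52636 rows, 48505 had no clone-derived name and 12368 genes were tested. CD70Tg mice express *Cd70* under the CD11c promoter, carry 1 intact *Cd27* allele (CD27+/-) and have a Foxp3-eGFP reporter. The other 4 libraries, 2 of each subset, came from CD27+/- controls that lack the *Cd70* transgene. Mice were 6 to 8 weeks old and received no deliberate antigen. RNA came from 200000 spleen cells per sample, sorted as CD3+ CD4+ and either GFP+ (Tregs) or GFP- (Tconvs). The cells had first been depleted of other lineages on magnetic columns, and anti-CD25 was part of the depletion mix for Tconvs only. *Foxp3* and *Il2ra*, which encodes CD25, were therefore used to separate the subsets, and their difference is a check of the sort and no finding. The sources used here do not say whether the 2 libraries of a group came from separate animals, so the p-values measure only the spread between these samples.

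CD27 is a costimulatory receptor of the TNF receptor superfamily on T cells. Its ligand CD70 appears briefly on activated dendritic cells and lymphocytes, and its engagement recruits TRAF adaptors that activate NF-kappaB. In conventional T cells the T-box factors Eomes and T-bet direct the type 1 program of interferon-gamma and cytotoxic granules. Tregs are held to their lineage by Foxp3 and restrain other T cells through consumption of IL-2, CTLA-4, the surface TGF-beta carrier encoded by *Lrrc32*, extracellular adenosine and IL-10. A Treg that adopts a type 1 program can share many of its activation genes with the cells it restrains. The comparison asks which genes still told Tregs from Tconvs when both were activated through the same receptor, and which no longer did.

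Values are reads per 20 M reads, rounded up. The size of the smallest step between values gave 1.90 and 3.65 M reads for the CD70Tg Treg libraries, 6.90 and 33.09 M for the CD70Tg Tconv libraries, 4.10 and 4.52 M for control Tregs and 9.51 and 19.44 M for control Tconvs. The CD70Tg Tregs were thus the shallowest libraries, and 3 reads, taken as the floor, were worth 31.3 and 16.3 there against 8.6 and 1.8 in CD70Tg Tconvs. Among the tested genes, 30 had both CD70Tg Treg values at or below this floor, and all 30 were called lower in Tregs. The minimum fixed this direction, since such genes could be tested only through their Tconv libraries. It also fixed the direction of any gene that reached 60 in both libraries of 1 subset and in neither of the other. Across genes, which are not independent replicates, the libraries of a group correlated with a Pearson r of log2 values between 0.981 and 0.99. The libraries of CD70Tg Tconvs differed over 2-fold at 317 genes (2.56%) and those of CD70Tg Tregs at 326 (2.64%). At the edge of the minimum, *Akap1* was tested with 74 and 60 in CD70Tg Tregs and 38 and 46 in CD70Tg Tconvs, and *Nicn1* was left out with 74 and 55 against 44 and 59. Below, the values of a group are given with its shallower library first. A log2 difference is always Tregs minus Tconvs on the scale log2(value + 5), which understates differences of genes with low values. A gene was called higher or lower at an adjusted p-value under 0.05 in limma and an absolute log2 difference over 1.

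*Foxp3* (chromosome X, 7573644 to 7595245, plus strand, GRCm38) told the sorted subsets apart as well in CD70Tg mice as in controls. It stood at 21367 and 21080 in CD70Tg Tregs and at 1170 and 1285 in CD70Tg Tconvs, against 19769 and 20102 in control Tregs and 1497 and 1039 in control Tconvs. The ranges of Tregs and Tconvs lay far apart in both kinds of mice. The log2 difference was 4.11 in CD70Tg and 3.99 in control mice, and its change between them was 0.11 (standard error 0.20, adjusted p = 0.90, limma). *Il2ra* behaved likewise, with 14398 and 14659 in CD70Tg Tregs and 548 and 488 in CD70Tg Tconvs. *Cd27* itself was at 6123 and 5894 in CD70Tg Tregs and at 3129 and 3359 in CD70Tg Tconvs. Its log2 difference of 0.89 (standard error 0.11, adjusted p = 9.8e-06) stayed under the threshold on size. *Cd70* was below the minimum for testing, at 11 and 44 in CD70Tg Tregs and at 15 and 28 in CD70Tg Tconvs.

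*Eomes* (chromosome 9, 118478212 to 118486132, plus strand), which encodes a T-box factor of type 1 and cytotoxic T cells, was abundant in both subsets of CD70Tg mice and lower in Tregs. It was at 1547 and 1458 in CD70Tg Tregs and at 2807 and 3386 in CD70Tg Tconvs. In control mice it was at 93 and 75 in Tregs and at 258 and 352 in Tconvs. Tregs were below Tconvs in every pairing of libraries, in CD70Tg and in control mice alike. The log2 difference was -1.04 (standard error 0.19, adjusted p = 0.00038) in CD70Tg and -1.79 (adjusted p = 1.3e-06) in control mice, and the change of 0.76 between them did not pass the test (adjusted p = 0.26). The CD70Tg value lay close to the threshold on size. It was -0.90 without the deeper CD70Tg Tconv library and -0.99 without the deeper CD70Tg Treg library, so that *Eomes* was not called in either case.

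*Gzmb* (chromosome 14, 56258838 to 56262260, minus strand) and *Havcr2* (chromosome 11, 46454935 to 46481255, plus strand) behaved differently. They encode the cytotoxic protease granzyme B and the coinhibitory receptor TIM-3, and both marked Tregs in control mice and neither subset in CD70Tg mice. *Gzmb* was at 850 and 666 in control Tregs and at 51 and 72 in control Tconvs. In CD70Tg mice it was at 2174 and 3246 in Tregs and at 1323 and 2941 in Tconvs. Control groups were separate, whereas the CD70Tg groups overlapped at levels above all 4 control libraries. The log2 difference went from 3.53 to 0.43 (standard error 0.29, adjusted p = 0.24), and its change of -3.10 (standard error 0.41) had an adjusted p of 0.00084. *Havcr2* was at 190 and 298 in control Tregs and at 9 and 13 in control Tconvs, and at 586 and 756 in CD70Tg Tregs and 666 and 1123 in CD70Tg Tconvs. Its ranges also separated in controls and overlapped in CD70Tg mice. The control difference of 3.94 became -0.38 (standard error 0.30, adjusted p = 0.33), a change of -4.31 (standard error 0.42, adjusted p = 5.5e-05). The change of *Havcr2* passed the test under all 18 alternative settings. That of *Gzmb* passed in every fit without 1 library but not with limma-voom on numbers of reads (adjusted p = 0.072).

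**Figure D1:**
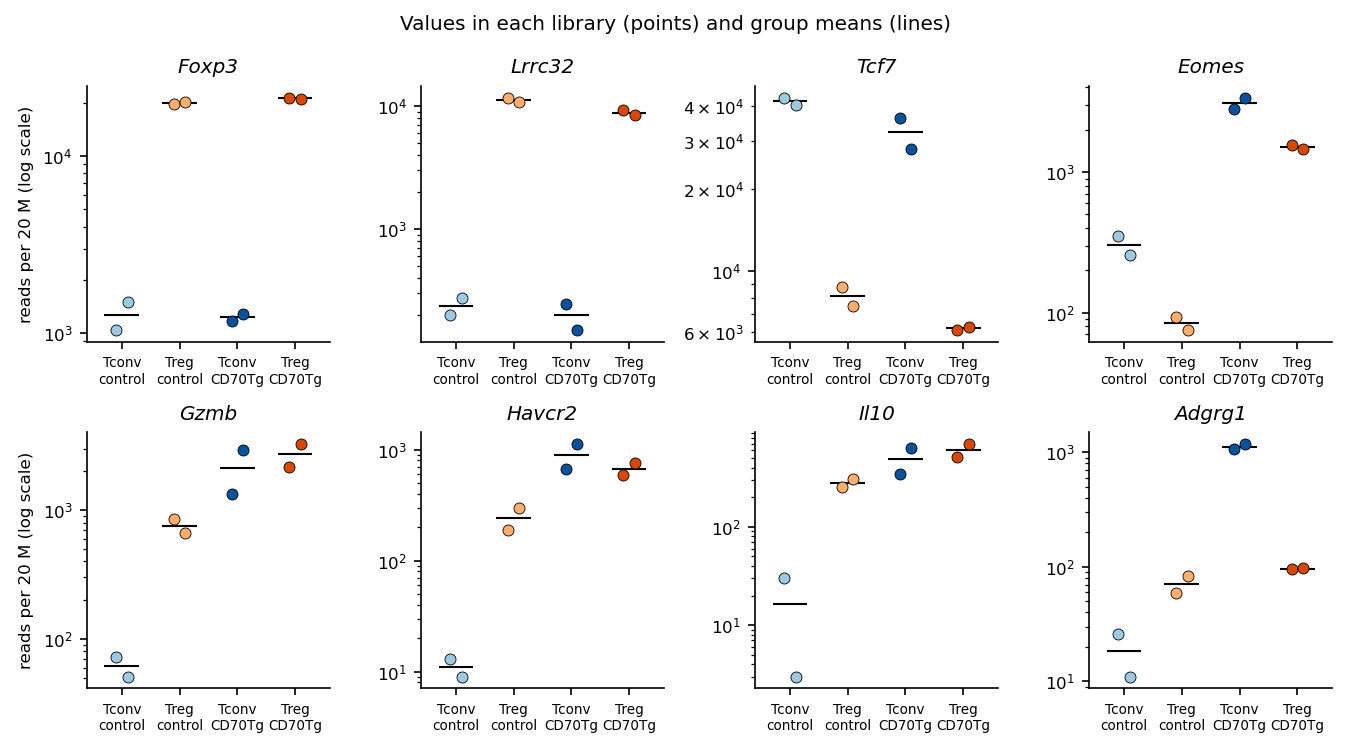
Values per 20 M reads (log axis) of 8 genes in each of the 8 libraries, with control and CD70Tg Tconvs and Tregs side by side and a point per library. *Foxp3* and *Lrrc32* stay high and *Tcf7* low in Tregs of both kinds of mice, whereas *Gzmb*, *Havcr2* and *Il10* reach Treg levels in CD70Tg Tconvs and *Adgrg1* passes them.

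In CD70Tg mice 1456 genes were higher in Tregs than in Tconvs, 11.8% of those tested, and 593 genes (4.79%) were lower. In controls the same 12368 genes gave 1718 higher (13.9%) and 525 lower (4.24%). The comparisons share no library, although they share the estimate of the spread. Most identity differences were present in both kinds of mice. A total of 1127 genes were higher in Tregs in both (9.11%) and 343 lower in both (2.77%), which is 77.4% of the genes higher in CD70Tg Tregs and 57.8% of those lower. Read from the control side, 65.6% of the higher and 65.3% of the lower calls were also made in CD70Tg mice. Over the 1127 genes the median log2 difference was 1.75 in CD70Tg and 1.84 in control mice, and over the 343 genes it was -1.69 and -1.63. Over all tested genes the median was -0.03 in CD70Tg and 0.06 in control mice. With median-of-ratios scaling these medians were -0.09 and -0.07, and 1355 genes were higher and 653 lower in CD70Tg Tregs.

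A call in controls alone covered 762 genes, of which 581 were higher and 181 lower in control Tregs. Of these, 720 kept the same sign in CD70Tg mice and 420 of them still had an adjusted p under 0.05, so a missing call is not by itself a lost difference. The change of the difference was therefore tested in the same model. It passed for 132 genes (1.07%), of which 108 (0.873%) moved towards Tconvs and 24 (0.194%) towards Tregs. Of the 762 genes called in controls alone, 45 passed this test. They were accompanied by 32 of the 1470 genes called the same way in both, 28 of the 568 called in CD70Tg mice alone and 10 of the 11 called in opposite directions. The remaining 17 genes were called in neither kind of mouse. The number of changed differences depended on the settings more than the other counts did. It was 63 with limma-voom on numbers of reads, all among the 132, and 6 when no minimum value was set. It was 59 (0.477%) without the shallower and 90 (0.728%) without the deeper CD70Tg Treg library, and 85 (0.687%) and 87 (0.703%) without the shallower and the deeper control Treg library. It was 81 (0.655%) without the deeper and 273 (2.21%) without the shallower CD70Tg Tconv library, and 178 (1.44%) and 128 (1.03%) without the deeper and the shallower control Tconv library. Over the 8 fits without 1 library the share of all tested genes that moved towards Tconvs ran from 0.42% to 1.92%, and that towards Tregs from 0.0566% to 0.283%. The share higher in CD70Tg Tregs ran from 9.95% to 12.4%. At an unadjusted p under 0.05, 7.58% of all tested genes moved towards Tconvs and 3.21% towards Tregs (10.8% in all).

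Among the 45 genes called in controls alone and with a changed difference, 39 had been higher in control Tregs. CD70Tg Tconvs were called higher than control Tconvs for 33 of these 39, against 4.24% of all tested genes. CD70Tg Tregs were called lower than control Tregs for 0 of the 39, higher for 13 (2.64% of all tested genes) and not called for 26. The count of 0 was the same at an unadjusted p under 0.05 and with limma-voom. In 26 of the 39 genes the difference in CD70Tg mice was still above 0. The mean of CD70Tg Tregs lay below that of control Tregs, by any amount, in 9 of the 39, and the median difference between CD70Tg and control mice was 2.05 in Tconvs and 0.49 in Tregs. For the 108 genes that moved towards Tconvs, CD70Tg Tconvs were called higher than control Tconvs for 80 and lower for 0 (0.437% of all tested genes). CD70Tg Tregs were called lower than control Tregs for 4 of them, against 0.833% of all tested genes, and their mean was below that of control Tregs for 44. The median difference between CD70Tg and control mice over the 108 genes was 1.99 in Tconvs and 0.15 in Tregs. These responses use the same libraries as the tested change and describe it.

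**Figure D2:**
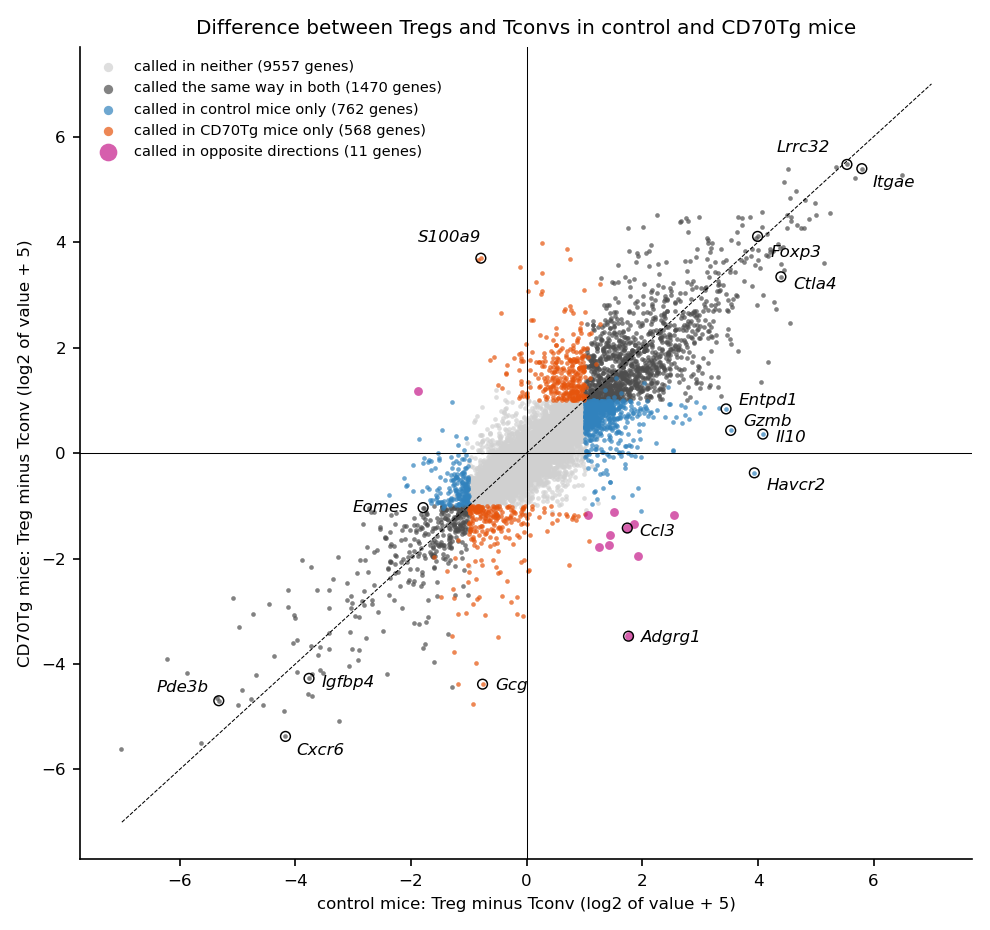
Each point is 1 of the 12368 tested genes, with its log2 difference Tregs minus Tconvs in control mice on the horizontal axis and in CD70Tg mice on the vertical axis, coloured by where it was called. The 1470 genes called the same way in both lie along the diagonal, and most genes with a changed difference lie below it.

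Most genes of Treg identity and suppression were higher in Tregs of both kinds of mice. Of 33 tested members of this list, 31 were higher in CD70Tg Tregs and 0 lower, against 11.8% and 4.79% of all tested genes, and all 33 were higher in control Tregs. The median log2 difference of the list was 2.55 in CD70Tg and 3.49 in control mice. The difference changed towards Tconvs for 5 of the 33, against 0.873% of all tested genes, and for 15 at an unadjusted p under 0.05, against 7.58%, whereas 1 moved towards Tregs at that threshold, against 3.21%. With limma-voom 2 of the 33 changed, and in fits without 1 library the number ran from 2, without the shallower CD70Tg Treg library, to 10, without the shallower CD70Tg or the deeper control Tconv library. The 5 were *Entpd1*, *Il10*, *Il1rl1*, *Klrg1* and *Ctla4*. *Il10* and *Entpd1* were the members not called in CD70Tg mice, and *Areg* was below the minimum. The list includes *Foxp3* and *Il2ra*, which the sort used. It was chosen with earlier results of these data known, and its counts are a description. Where 0 members of this or a later list were called between the subsets, the count was also 0 at an unadjusted p under 0.05 and with limma-voom, with the same threshold on size.

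*Lrrc32* (chromosome 7, 98489283 to 98502181, plus strand), whose product GARP holds latent TGF-beta on the surface of Tregs, had the largest difference in favour of Tregs on the scale tested. It was at 9237 and 8423 in CD70Tg Tregs and at 248 and 151 in CD70Tg Tconvs, against 11665 and 10684 and 277 and 200 in controls. The 2 subsets were far apart in both kinds of mice. The log2 difference was 5.47 (standard error 0.19, adjusted p = 6e-12) and differed from that in controls by -0.06 (adjusted p = 0.96). *Ikzf2*, which encodes the Treg transcription factor Helios, was at 10386 and 10402 in CD70Tg Tregs and at 534 and 536 in CD70Tg Tconvs, a difference of 4.27. *Ikzf4*, which encodes its relative Eos, differed by 3.19, the integrin subunit gene *Itgb8*, which serves in TGF-beta activation, by 3.92, and *Socs2*, a feedback inhibitor of cytokine signals, by 3.43. The change of these 4 differences between control and CD70Tg mice did not pass the test, with adjusted p-values from 0.67 to 0.95.

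*Itgae*, which encodes the CD103 integrin chain that binds E-cadherin, was separate between the subsets at a higher level. It was at 12006 and 13256 in CD70Tg Tregs and at 277 and 315 in CD70Tg Tconvs, against 4664 and 5031 and 107 and 63 in controls. It was called higher in the CD70Tg libraries of both subsets, and the difference between subsets was 5.39 in CD70Tg and 5.80 in control mice (adjusted p of the change 0.64). *Fgl2*, which encodes a secreted suppressive protein, was also called higher in the CD70Tg libraries of both subsets, with 5987 and 6117 in CD70Tg Tregs and 902 and 1542 in CD70Tg Tconvs, against 1990 and 2404 and 201 and 181 in controls. Its difference was 2.35 in CD70Tg and 3.49 in control mice, and the change of -1.13 missed the threshold (adjusted p = 0.055). *Gpr83* and *Cd83* took the opposite course. *Gpr83*, an orphan receptor of Tregs, was at 1578 and 1458 in CD70Tg Tregs against 6250 and 4729 in control Tregs, and was lower in both CD70Tg subsets than in controls. It still differed between CD70Tg Tregs and Tconvs by 2.18 (adjusted p = 2.3e-07), and *Cd83* by 3.99.

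The TNF receptor genes on the Treg list stayed apart as well. In CD70Tg mice *Tnfrsf9* (4-1BB) differed by 3.41, *Tnfrsf4* (OX40) by 2.83, *Tnfrsf1b* (TNFR2) by 2.00 and *Tnfrsf18* (GITR) by 1.93. *Tnfrsf4* and *Tnfrsf1b* were called higher in CD70Tg than in control Tconvs, yet the change of their differences did not pass (adjusted p = 0.46 and 0.12). *Ctla4*, which encodes the receptor that strips CD80 and CD86 from dendritic cells, remained higher in Tregs by a smaller margin. It was at 8453 and 8890 in CD70Tg Tregs and at 663 and 1090 in CD70Tg Tconvs, against 10142 and 10898 and 496 and 493 in controls. The groups stayed separate, and the difference went from 4.40 to 3.34, a change of -1.05 (adjusted p = 0.039) that held in only 2 of 8 fits without 1 library, in which its adjusted p ran from 0.00015 to 0.18.

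*Tigit*, a coinhibitory receptor of effector Tregs, was at 8652 and 8607 in CD70Tg Tregs and at 3037 and 4315 in CD70Tg Tconvs. Its difference of 1.25 (adjusted p = 0.0083) was smaller than the 3.31 of controls, but the change missed the threshold (adjusted p = 0.057). Without the shallower CD70Tg Tconv library the difference of *Tigit* was 1.00 with an adjusted p of 0.08. *Klrg1*, a marker of terminal effector cells, and *Il1rl1*, which encodes the IL-33 receptor ST2, also stayed higher in CD70Tg Tregs, by 2.48 and 1.72, with differences that changed by -2.09 and -2.45 from those of controls. The adjusted p-values of these changes were 0.02 and 0.0043. In fits without 1 library that of *Klrg1* reached 0.096 and that of *Il1rl1* 0.023.

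*Entpd1* (chromosome 19, 40612366 to 40741602, plus strand) and *Il10* (chromosome 1, 131019845 to 131024974, plus strand) were the members of the Treg list that no longer separated the subsets by more than the threshold. *Entpd1* encodes CD39, the ectoenzyme that starts the breakdown of extracellular ATP. It was at 1461 and 1441 in control Tregs and at 124 and 133 in control Tconvs. In CD70Tg mice it was at 2257 and 2333 in Tregs and at 1046 and 1573 in Tconvs. All CD70Tg Treg values remained above the Tconv values, by a far smaller margin than in controls. The difference went from 3.45 to 0.84 (standard error 0.17, adjusted p = 0.0011), and the change of -2.61 (standard error 0.24, adjusted p = 3.4e-05) held under all 18 alternatives. *Nt5e*, which encodes CD73, the next enzyme of the same pathway, kept a difference of 2.10 in CD70Tg mice (4044 and 4089 against 1029 and 865).

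*Il10* encodes the suppressive cytokine of effector Tregs and of some type 1 helper cells. It was at 253 and 307 in control Tregs and at 3 and 30 in control Tconvs, and at 512 and 691 in CD70Tg Tregs and 340 and 629 in CD70Tg Tconvs. The control groups were separate and the CD70Tg groups overlapped. The difference went from 4.08 to 0.36 (standard error 0.48, adjusted p = 0.57), a change of -3.72 (standard error 0.67, adjusted p = 0.011). For *Il10* this change had an adjusted p of 0.072 with limma-voom, 0.075 without the deeper CD70Tg Tconv library and 0.056 without the shallower CD70Tg Treg library, and without 1 library it ran from -4.79 to -2.66. *Ebi3*, which encodes a subunit shared by IL-27 and IL-35, stayed higher in CD70Tg Tregs by 2.32 (345 and 468 against 44 and 131), or by 1.58 without the shallower and 3.05 without the deeper CD70Tg Tconv library.

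Lost differences, called in controls alone and changed, were ranked by their size in controls and not by the size of the change. The largest were, beside *Il10*, *Havcr2*, *Gzmb* and *Entpd1*, those of *Camk2n1*, *Rasgef1b*, *Hip1*, *Runx2*, *Zcchc18* and *Gprin3*. Their differences in controls lay between 2.58 and 3.33, and those in CD70Tg mice between 0.57 and 0.91. *Runx2*, a Runt-family transcription factor, was at 423 and 548 in control Tregs and at 57 and 87 in control Tconvs. In CD70Tg mice it was at 1338 and 1430 in Tregs and at 715 and 1214 in Tconvs. It was called higher in the CD70Tg libraries of both subsets, and the CD70Tg subsets still did not overlap. The change of its difference was -2.12 (standard error 0.35, adjusted p = 0.0052), with 0.056 by limma-voom. *Hip1*, which encodes a clathrin adaptor, was at 423 and 495 and at 74 and 56 in controls, and at 2007 and 1860 and at 850 and 1301 in CD70Tg Tregs and Tconvs. Its difference changed by -1.86 (standard error 0.30, adjusted p = 0.0047). For *Camk2n1* and *Rasgef1b* the change passed in only 4 of 8 fits without 1 library, and for *Hip1*, *Runx2*, *Zcchc18* and *Gprin3* in all 8.

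**Figure D3:**
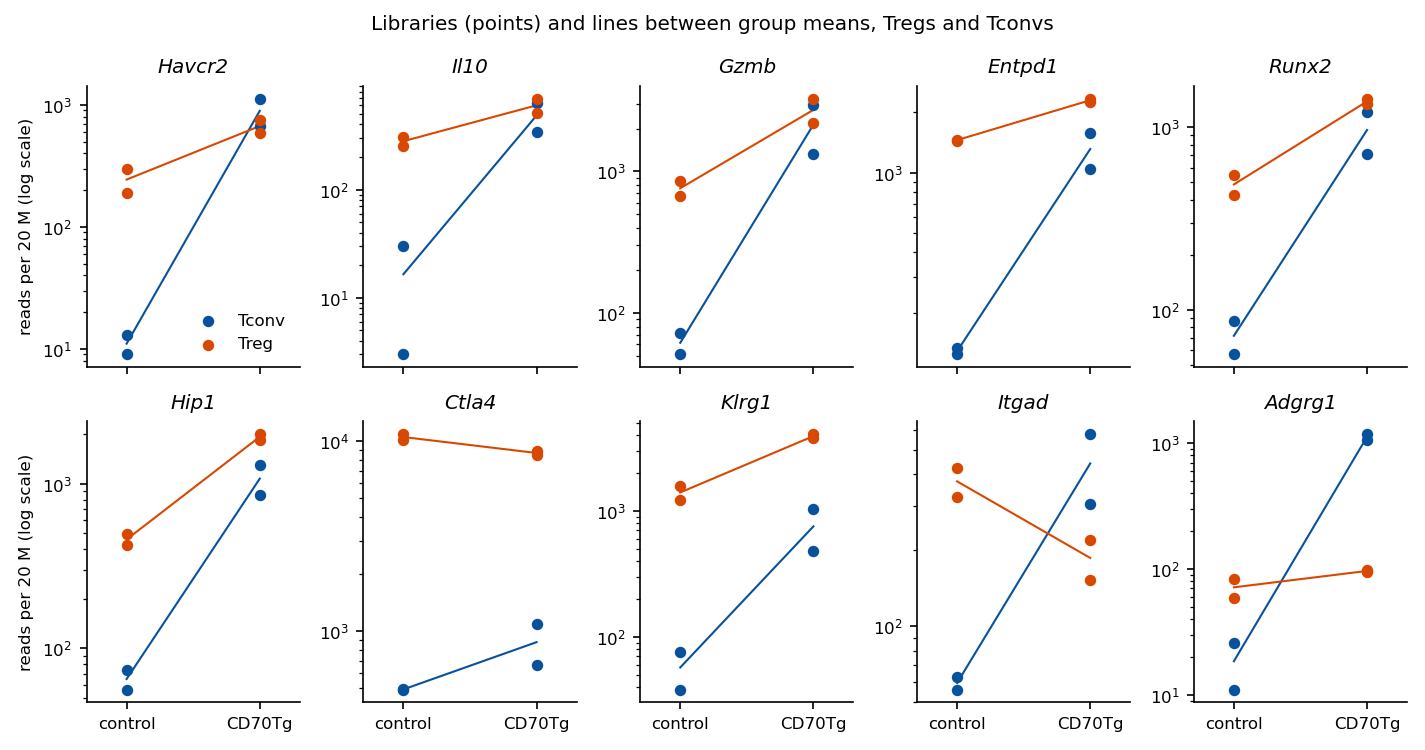
Values per 20 M reads (log axis) of 10 genes whose subset difference changed, with a point per library and a line for the mean of each group. Control Tconvs are the lowest group for these genes, and CD70Tg Tconvs lie close to CD70Tg Tregs for most of them, above them for *Adgrg1* and *Itgad*, and below them for *Ctla4* and *Klrg1*.

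Many genes of the resting and conventional program were lower in Tregs of both kinds of mice. Of 26 tested members of the list of Tconv and resting T cell genes, 17 were lower in CD70Tg Tregs and 1 higher, against 4.79% and 11.8% of all tested genes. In control Tregs 16 were lower, against 4.24%. The median difference was -1.66 in CD70Tg and -1.23 in control mice. *Tcf7*, which encodes TCF-1, a factor of naive and memory T cells, was at 6102 and 6286 in CD70Tg Tregs and at 36343 and 28016 in CD70Tg Tconvs. In controls it was at 8769 and 7466 and at 40413 and 43076. The subsets were wide apart in both, with a difference of -2.36 in CD70Tg and -2.37 in control mice. Its partner *Lef1* differed by -1.86, the lymph node homing receptor *Ccr7* by -2.18, the egress receptor *S1pr1* by -1.33 and the genome organiser *Satb1* by -1.69.

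*Igfbp4* and *Pde3b* had the largest negative differences of the list, -4.27 and -4.70. *Pde3b*, which encodes a cyclic nucleotide phosphodiesterase, was at 157 and 158 in CD70Tg Tregs and at 4213 and 4205 in CD70Tg Tconvs. *Cd40lg*, the helper signal to B cells and dendritic cells, was at 115 and 185 in CD70Tg Tregs and at 2000 and 2007 in CD70Tg Tconvs, a difference of -3.73. *Il7r*, whose product is often used at the surface to tell the subsets apart, did not separate them in CD70Tg mice (9749 and 8765 against 11436 and 7653, difference -0.02, adjusted p = 0.95). It was not called in control mice either, so a lost difference was not shown. *Ccr9*, a receptor for homing to the gut, was the member that was higher in CD70Tg Tregs, by 1.63 (659 and 484 against 194 and 166).

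*Bcl2*, which encodes a survival factor, was the only gene of this list whose difference changed in the fit of all libraries, whereas 3 changed towards Tconvs without the deeper control Tconv library, against 1.28% of all tested genes, and 2 without the deeper CD70Tg Treg library, against 0.606%. It was at 3839 and 3359 in control Tregs and at 2480 and 2512 in control Tconvs, but at 1808 and 1865 in CD70Tg Tregs and 3492 and 3445 in CD70Tg Tconvs. The order of the subsets was the opposite in CD70Tg mice, with no overlap in either. The difference went from 0.52 to -0.92, both short of the threshold on size, and the change of -1.44 (standard error 0.16, adjusted p = 0.00023) held under all 18 alternatives.

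Many cytotoxic and type 1 genes were lower in Tregs than in Tconvs of CD70Tg mice. Of 31 tested members, 18 were lower and 0 higher, where 4.79% and 11.8% of all tested genes were. In controls 13 were lower and 7 higher (4.24% and 13.9% of all tested genes), and the difference of 5 changed towards Tconvs, against 0.873%. With limma-voom 17 were lower in CD70Tg and 9 in control Tregs and 2 changed. Without the deeper CD70Tg Tconv library 13 were lower and 3 higher in CD70Tg Tregs and 3 changed, and *Xcl1*, which encodes lymphotactin, was among those that lost their call there. The median difference was -1.12 in CD70Tg and -0.59 in control mice. *Nkg7*, a component of cytotoxic granules, was at 3657 and 3681 in CD70Tg Tregs and at 9624 and 10964 in CD70Tg Tconvs, against 316 and 491 and 829 and 744 in controls. Both subsets of CD70Tg mice were above both control groups, with Tregs below Tconvs. The difference of *Nkg7* was -1.48 (adjusted p = 3e-06). *Gzmk* was at 878 and 778 against 5259 and 6797, a difference of -2.85, and the perforin gene *Prf1* at 1056 and 1001 against 2971 and 3335, a difference of -1.61. *Fasl*, the death ligand, differed by -2.44, and the fractalkine receptor *Cx3cr1* by -1.61.

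*Ifng*, the signature cytokine of type 1 cells, was at 168 and 300 in CD70Tg Tregs and at 718 and 2111 in CD70Tg Tconvs, against 64 and 71 and 72 and 105 in controls. The CD70Tg groups did not overlap, while the CD70Tg Tconv libraries themselves differed widely. The difference was -2.43 (standard error 0.40, adjusted p = 0.00015) in CD70Tg mice, and its change from -0.35 in controls did not pass (adjusted p = 0.10). Without the deeper CD70Tg Tconv library *Ifng* differed by -1.65, and without the shallower one by -3.20. *Tbx21*, which encodes T-bet, was at 607 and 735 in CD70Tg Tregs and at 848 and 2368 in CD70Tg Tconvs. Its difference of -1.08 (adjusted p = 0.011) rested on the deeper CD70Tg Tconv library, without which *Tbx21* differed by -0.34 (adjusted p = 0.24). It was also not called by limma-voom (adjusted p = 0.063) or without the shallower CD70Tg Treg library (adjusted p = 0.081). *Il12rb2* and *Gzma* lost their calls without the deeper CD70Tg Tconv library too, with differences of -0.66 (adjusted p = 0.29) and -1.32 (adjusted p = 0.058), and *Il12rb2* also without the shallower CD70Tg Treg library (-0.73, adjusted p = 0.25). *Cxcr3*, the type 1 chemokine receptor, was not called, at 6729 and 7112 in CD70Tg Tregs and 4146 and 5978 in CD70Tg Tconvs (difference 0.47, adjusted p = 0.023).

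*Adgrg1* (chromosome 8, 94974751 to 95014217, plus strand), which encodes the adhesion receptor GPR56 of cytotoxic lymphocytes, had the largest change among the genes that passed its test. It was at 59 and 84 in control Tregs and at 11 and 26 in control Tconvs. In CD70Tg mice it was at 95 and 98 in Tregs and at 1067 and 1179 in Tconvs. Tregs were the higher subset in controls and the lower in CD70Tg mice, without overlap. The difference went from 1.76 to -3.47 (standard error 0.34, adjusted p = 8e-07), and the change of -5.23 (standard error 0.48, adjusted p = 3.4e-05) held under all 18 alternatives. The chemokine gene *Ccl3* also turned, from 15 and 53 against 3 and 8 in controls to 868 and 1175 in CD70Tg Tregs against 2415 and 3050 in CD70Tg Tconvs. Its difference in CD70Tg mice was -1.42 (adjusted p = 0.0087) and its change -3.16 (adjusted p = 0.0097). For *Ccl3* the CD70Tg call was lost without the deeper CD70Tg Tconv library (adjusted p = 0.077) and without the shallower CD70Tg Treg library (adjusted p = 0.079). The change of *Ccl3* did not pass without the same libraries (adjusted p = 0.07 and 0.056) or with limma-voom (adjusted p = 0.11), it ran from -3.93 to -2.39 without 1 library, and its control values rested on 3 and 12 reads in Tregs and 1 and 8 in Tconvs. *Cst7*, which encodes cystatin F, and *Il12rb1*, a subunit of the IL-12 receptor, were higher in control Tregs by 1.80 and 2.02 and differed by -0.05 and 0.75 in CD70Tg mice. Their changes of -1.85 and -1.27 had adjusted p-values of 0.0012 and 0.04, and the latter held in 2 of 8 fits without 1 library.

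Markers of CD8 and NK cells were also lower in CD70Tg Tregs. Of 6 tested members of that marker list, 5 were lower and 1 higher in CD70Tg Tregs, against 4.79% and 11.8% of all tested genes, and the change of the difference passed for 0 of the 6 by limma or limma-voom and for 3 at an unadjusted p under 0.05, against 1.07% and 10.8% of all tested genes. The summed level of its 11 members was 2530 to 2678 in CD70Tg Tregs and 4740 to 5897 in CD70Tg Tconvs, against 2005 to 2076 and 3248 to 3519 in controls. The NK genes *Ncr1*, *Klre1*, *Klra8*, *Klra4* and *Klra7* were at 0 in the CD70Tg Tregs and at most at 17 in CD70Tg Tconvs. With floors of 31.3 and 16.3 in CD70Tg Tregs, these zeros cannot show a lower level there. *Cd8a* was at 508 and 608 in CD70Tg Tconvs and at 262 and 223 in CD70Tg Tregs, against 28 and 17 and 25 and 71 in controls. *Cd8b1*, which encodes the other CD8 chain, was at 398 and 408 in CD70Tg Tregs and at 1055 and 982 in CD70Tg Tconvs, a difference of -1.33. With *Cd7* (-1.29), the gamma-delta receptor gene *Trdc* (-2.03) and *Klrb1c* (-3.09), which encodes NK1.1, it was called under every alternative that gave a value, although *Klrb1c* differed by -2.26 without the shallower and by -3.93 without the deeper CD70Tg Treg library. The call of *Cd8a* in CD70Tg mice (-1.18, adjusted p = 0.022) was lost without any 1 of the 4 CD70Tg libraries, with adjusted p-values from 0.053 to 0.12. *Klrk1*, which encodes NKG2D, had 0 reads in CD70Tg Tregs and was at least 11.2-fold lower there than in Tconvs, at a floor of 3 reads over both Treg libraries. *Klrd1* (CD94) had 2 reads in CD70Tg Tregs and was 20.1-fold lower (95% counting interval 5.52 to 167). *Klrk1*, *Klrd1* and *Klrb1c*, which also had 2 reads there, met the minimum only through their Tconv libraries. Their direction was thus fixed. In bulk samples, fewer cells of a type cannot be told from less RNA per cell, and the part of such cells in the cytotoxic values was not tested.

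Coinhibitory receptors and regulators of exhaustion, the state of chronically stimulated T cells, lay on both sides in CD70Tg mice. *Ctla4* and *Tigit*, higher in CD70Tg Tregs by 3.34 and 1.25, stood on the Treg list and were not counted here. Of 20 tested members, 7 were higher and 4 lower in CD70Tg Tregs, where 11.8% and 4.79% of all tested genes were. In controls 10 were higher and 1 lower (13.9% and 4.24% of all tested genes), and the difference of 5 changed towards Tconvs, against 0.873%. With limma-voom 3 changed, without the deeper control Tconv library 9 and without the shallower CD70Tg Tconv library 8, and without the deeper CD70Tg Tconv library 2 were lower. The median difference was -0.21 in CD70Tg and 1.05 in control mice. *Pdcd1*, which encodes PD-1, was at 1892 and 1800 in CD70Tg Tregs and at 3812 and 5157 in CD70Tg Tconvs. In controls it was at 1835 and 1826 and at 547 and 1867, so that the control groups overlapped and the CD70Tg groups did not. The difference was -1.26 (standard error 0.34, adjusted p = 0.0067) in CD70Tg mice and the change -2.11 (adjusted p = 0.04). For *Pdcd1* the CD70Tg call was lost without the deeper CD70Tg Tconv library (-1.04, adjusted p = 0.068), and the change held in 3 of 8 fits without 1 library, and was -1.23 without the shallower control Tconv library. *Lag3* was at 4190 and 4453 in CD70Tg Tregs and at 5818 and 8013 in CD70Tg Tconvs, a difference of -0.66 that did not pass (adjusted p = 0.26).

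*Cd38*, an ectoenzyme of activated cells, was at 554 and 609 in CD70Tg Tregs and at 793 and 1302 in CD70Tg Tconvs, whereas control Tregs (471 and 447) were above control Tconvs (141 and 113). Its change of -2.62 (standard error 0.32, adjusted p = 0.00041) held in all 8 fits without 1 library. *Tox*, a regulator of exhaustion, changed by -1.01 (adjusted p = 0.013), from a difference of 0.58 to -0.43, and *Prdm1*, which encodes Blimp-1, by -1.38 (adjusted p = 0.0043). The change of *Tox* did not pass with limma-voom (adjusted p = 0.056), without the shallower CD70Tg Treg library (adjusted p = 0.094) or without the deeper control Treg library (adjusted p = 0.077). *Prdm1* was still higher in CD70Tg Tregs, at 2853 and 2909 against 911 and 1129. The genes *Nr4a1* and *Nr4a3*, early targets of T cell receptor signals, were higher in CD70Tg Tregs by 1.84 and 1.83. *Cd160* was lower in CD70Tg Tregs (84 and 44 against 234 and 415, difference -2.26). *Cd200*, with a difference of 1.01, lay at the threshold and was not called with median-of-ratios scaling or without the deeper CD70Tg Tconv library (0.95 and 0.98).

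**Figure D4:**
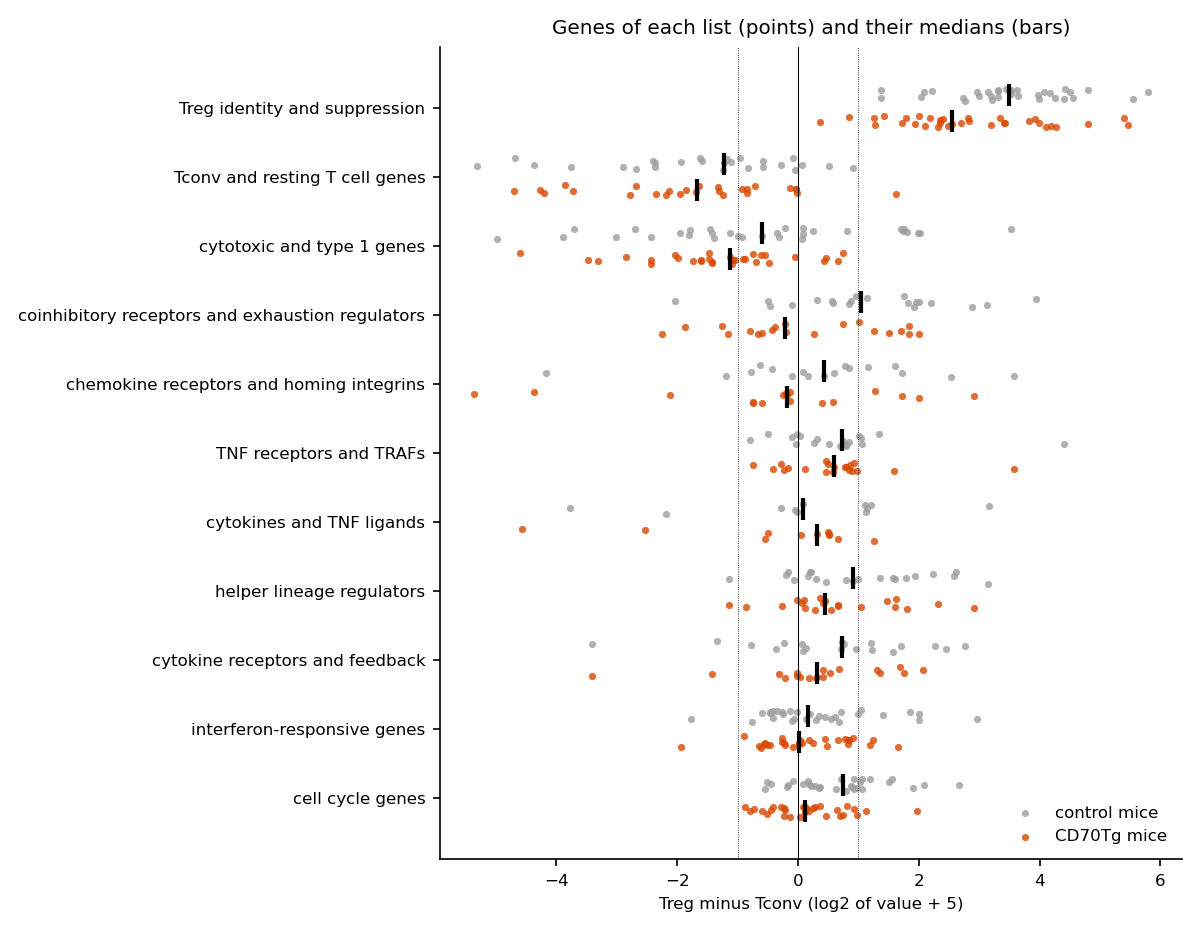
Log2 differences Tregs minus Tconvs of the tested members of 11 gene lists, in control mice (grey) and CD70Tg mice (orange), with a bar at the median of each list. The Treg list lies highest and the Tconv list lowest in both kinds of mice, and the median of the coinhibitory list goes from 1.05 to -0.21.

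Among receptors of the TNF superfamily that are not on the Treg list, with the TRAF and NF-kappaB genes that act below them, 20 members were tested. In CD70Tg Tregs 2 were higher and 0 lower, which is near the shares of all tested genes (11.8% and 4.79%), with a median difference of 0.59 against 0.72 in controls. The 2 were *Tnfrsf8*, which encodes CD30 (533 and 642 against 35 and 56, difference 3.58), and *Tnfrsf10b*, a TRAIL receptor (difference 1.59). *Nfkb1*, *Nfkb2*, *Rel* and *Traf1* were called in controls alone, but their differences in CD70Tg mice of 0.46, 0.98, 0.84 and 0.86 had the same sign, and 0 members of the list had a changed difference by limma or limma-voom, where 1.07% of all tested genes had one by limma. At an unadjusted p under 0.05 there were 6, against 10.8%, and without the shallower CD70Tg Tconv library 2, against 2.21%.

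Chemokine receptors and homing integrins divided the CD70Tg subsets by member. Of 17 tested, 4 were higher and 3 lower in CD70Tg Tregs, against 11.8% and 4.79% of all tested genes. *Cxcr6*, a receptor of tissue-resident and type 1 cells, had the largest negative difference among them. It was at 74 and 126 in CD70Tg Tregs and at 3095 and 5738 in CD70Tg Tconvs, against 44 and 88 and 1388 and 1056 in controls. Tconvs were the high group in both kinds of mice, and the difference was -5.37 (standard error 0.32, adjusted p = 2.8e-09). The skin and barrier receptors *Ccr4* and *Ccr6* were higher in CD70Tg Tregs by 2.00 and 2.92, *Ccr10* by 1.73 and *Itgav* by 1.27. *S1pr5*, an egress receptor of effector cells, had 1 read in CD70Tg Tregs and was 64.4-fold lower than in Tconvs (95% counting interval 11.5 to 2.55e+03). It met the minimum only through its Tconv libraries, which fixed this direction. *Itga1*, a collagen-binding integrin chain, was lower as well (difference -2.12). Without the shallower CD70Tg Tconv library *Ccr10* differed by 1.14, and without the deeper one *Itga1* differed by -1.51 and *S1pr5* by -3.59.

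For the subunits of the integrin VLA-4 the difference moved towards Tconvs, *Itga4* by -0.79 (adjusted p = 0.022) and *Itgb1* by -0.92 (adjusted p = 0.04). These 2 changes held in 3 and 2 of 8 fits without 1 library, and neither gene was called between the CD70Tg subsets.

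Among cytokines and TNF ligands, 11 members were tested, of which 1 was higher and 2 lower in CD70Tg Tregs, against 11.8% and 4.79% of all tested genes. *Il21*, the helper cytokine of follicular cells, was at 11 and 17 in CD70Tg Tregs and at 283 and 686 in CD70Tg Tconvs, and at 10 and 9 and 74 and 493 in controls. Its Tconv libraries varied widely, and the difference of -4.57 (adjusted p = 2.6e-05) was not called by limma-voom (adjusted p = 0.058). Without 1 library the difference of *Il21* ran from -5.20 to -3.94. The gene met the minimum only through the CD70Tg Tconv libraries, which fixed the direction of this difference. *Tnfsf14*, which encodes LIGHT, differed by -2.53. *Csf1*, the macrophage growth factor, was the higher member, at 1505 and 1501 against 387 and 1024, a difference of 1.25 (adjusted p = 0.0026) that was 0.55 for *Csf1* without the shallower CD70Tg Tconv library and 0.98 with limma-voom. *Tnfsf10*, which encodes TRAIL, changed from a difference of 1.21 to 0.32 (change -0.89, adjusted p = 0.042). For *Tnfsf10* this change held in 2 of 8 fits without 1 library, with adjusted p-values up to 0.25, and did not pass with limma-voom (adjusted p = 0.11), median-of-ratios scaling (0.058) or a pseudocount of 1 (0.053). The type 2 and type 17 cytokine genes *Il4*, *Il5*, *Il13*, *Il17a*, *Il17f* and *Il22* were below the minimum, and none exceeded 15 in a CD70Tg library.

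Of 21 tested regulators of helper lineages, 7 were higher in CD70Tg Tregs and 1 lower, where 11.8% and 4.79% of all tested genes were. In controls 9 were higher and 1 lower, where 13.9% and 4.24% were. The decoy receptor gene *Il1r2* was higher in CD70Tg Tregs by 2.92, *Nfil3* by 2.31, *Ahr* by 1.63 and *Irf8* by 1.61, and *Gata3* by 1.04, which for *Gata3* was 0.90 without the shallower CD70Tg Tconv library and 0.99 without the shallower CD70Tg Treg library. *Ikzf1* was the lower member (difference -1.15). *Irf4*, which effector Tregs require, *Bhlhe40* and *Ikzf3* changed by -1.39, -1.86 and -0.91 (adjusted p = 0.033, 0.013 and 0.011). *Bhlhe40*, a regulator of cytokine production, was at 2195 and 2561 in CD70Tg Tregs and 3127 and 5936 in CD70Tg Tconvs, against 549 and 583 and 216 and 366 in controls. The change of *Irf4* held in 3, that of *Ikzf3* in 5 and that of *Bhlhe40* in 6 of 8 fits without 1 library, and by limma-voom *Irf4* and *Bhlhe40* did not pass (adjusted p = 0.14 and 0.20). The difference of *Nfil3* was 1.72 without the shallower and 2.89 without the deeper CD70Tg Tconv library.

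Of 19 tested cytokine receptors and feedback genes, 5 were higher and 2 lower in CD70Tg Tregs, against 11.8% and 4.79% of all tested genes. *Il2rb*, a signalling chain of the IL-2 receptor, was at 36340 and 34608 in CD70Tg Tregs and at 13098 and 14868 in CD70Tg Tconvs, against 33637 and 30872 and 7075 and 6410 in controls. Its difference was 2.26 in control and 1.35 in CD70Tg mice (change -0.91, adjusted p = 0.016). *Cish*, a feedback inhibitor that IL-2 signals induce, stayed higher in CD70Tg Tregs by 2.07, the interferon-gamma receptor chain *Ifngr1* by 1.31 and *Tgfbr1* by 1.69, while *Tgfbr2* and *Tgfbr3* were lower (-1.42 and -3.42). *Il10ra* changed by -1.17 (adjusted p = 0.0074) to a difference of 0.41. For *Il2rb* the change held in 5, and for *Il10ra* in 7, of 8 fits without 1 library.

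Interferon-responsive genes were called between the CD70Tg subsets about as often as all tested genes. Of 30 tested, 3 were higher and 1 lower, against 11.8% and 4.79% of all tested genes, with a median difference of 0.02 against 0.17 in controls. The 3 higher members were the GTPase genes *Gbp3* (1.65) and *Gbp7* (1.24) and *Mx1* (1.19), and without the shallower CD70Tg Tconv library *Gbp7* differed by 0.94 and *Mx1* by 0.88. *Gbp3* was the member whose difference changed (-1.32, adjusted p = 0.0043), whereas 4 members changed without the deeper control Tconv library and 4 without the shallower CD70Tg Tconv library. *Oasl2* was lower in CD70Tg Tregs (-1.93). Related genes of this family, such as *Tgtp1* and *Tgtp2*, can share reads.

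Of 30 tested cell cycle genes, 1 was higher in CD70Tg Tregs, against 11.8% of all tested genes, and 9 were higher in control Tregs, against 13.9%. The change of the difference passed for 0 of the 30 by limma or limma-voom and for 7 at an unadjusted p under 0.05, against 1.07% and 10.8% of all tested genes, so a loss was not shown. These counts depended on the CD70Tg Tconv libraries. Without the deeper one 8 of the 30 were higher in CD70Tg Tregs, against 12.4% of all tested genes in that fit, and without the shallower one the change passed for 6, against 2.21%. *Mki67*, the standard marker of cycling cells, was the gene called, at 3020 and 3301 in CD70Tg Tregs and 493 and 1311 in CD70Tg Tconvs (difference 1.97, adjusted p = 5.9e-05). The difference of *Mki67* was 1.26 without the shallower and 2.67 without the deeper CD70Tg Tconv library. *Top2a*, called in controls, was at 1568 and 1566 in CD70Tg Tregs and 799 and 1606 in CD70Tg Tconvs (difference 0.47, adjusted p = 0.10).

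Differences seen in CD70Tg mice alone covered 568 genes, 328 higher and 240 lower in Tregs. Of these, 514 had the same sign in controls and 203 of them an adjusted p under 0.05 there. The change of the difference passed for 28 of the 568, with 11 among the higher and 17 among the lower genes. The largest changes towards Tregs were those of *Gda*, *S100a9* and *Il13ra1*. *Gda*, which encodes guanine deaminase, was at 199 and 256 in CD70Tg Tregs and at 9 and 19 in CD70Tg Tconvs, with at most 17 in any control library (difference 3.65, change 4.50, adjusted p = 0.011). *Il13ra1*, a receptor chain for IL-13, was at 209 and 202 in CD70Tg Tregs and at 9 and 10 in CD70Tg Tconvs, against 25 and 36 and 21 and 13 in controls (difference 3.86, change 3.16, adjusted p = 0.013). *S100a9*, a granulocyte protein, was at 95 and 104 in CD70Tg Tregs, 0 and 8 in CD70Tg Tconvs and at most 10 in controls (difference 3.69, change 4.49, adjusted p = 0.016). CD70Tg Tregs were the single high group for all 3 genes. All 3 met the minimum only through the CD70Tg Treg libraries, which fixed the direction of their CD70Tg difference. By limma-voom the change of *Il13ra1* had an adjusted p of 0.049, that of *S100a9* 0.067 and that of *Gda* 0.099. In fits without 1 library the changes of *Il13ra1* and *S100a9* held in 6 and that of *Gda* in 7 of 8. The size of the change ran from 3.80 to 5.18 for *S100a9* and from 3.71 to 5.29 for *Gda* in these fits, and the CD70Tg difference of *S100a9* from 3.01 to 4.38. Control Tregs had 2 reads of *Gda* and 1 of *S100a9*, so that the size of these changes depends on the value added before the logarithm. With a pseudocount of 1 the change was 5.76 for *Gda* and 6.79 for *S100a9*, and neither passed (adjusted p = 0.058 and 0.073, limma).

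Another 11 genes were called in opposite directions, and 10 of them went from higher in control Tregs to lower in CD70Tg Tregs. The named ones beside *Adgrg1* and *Ccl3* were *Itgad*, *Car5b* and *4931431B13Rik*. *Itgad*, which encodes an integrin alpha chain of leukocytes, was at 326 and 425 in control Tregs and at 63 and 56 in control Tconvs, but at 220 and 153 in CD70Tg Tregs and at 306 and 578 in CD70Tg Tconvs. The order was opposite, without overlap. The change of -3.73 (standard error 0.43, adjusted p = 0.00033) held in all 8 fits without 1 library, whereas the difference of -1.18 among CD70Tg libraries was not called for *Itgad* without the deeper Tconv library (-0.72) or the deeper Treg library (-0.92). *Car5b*, a mitochondrial carbonic anhydrase, went from a difference of 1.85 to -1.35, a CD70Tg call that was lost for *Car5b* without the deeper CD70Tg Tconv library (-0.99, adjusted p = 0.061), and *4931431B13Rik* from 1.93 to -1.94. *Gcg*, best known as the gene of glucagon, was at 317 and 471 in CD70Tg Tconvs, at 11 and 17 in CD70Tg Tregs and at most at 4 in controls, a difference of -4.38 in CD70Tg mice. *Gcg* met the minimum only through the CD70Tg Tconv libraries, which fixed the direction of this difference. CD70Tg Tconvs were its single high group, and the change of -3.62 (adjusted p = 0.015) was not called by limma-voom (adjusted p = 0.20). *Gcg* had 0 reads in control Tregs, so the size of its change also depends on the value added. With a pseudocount of 1 it was -2.56 (adjusted p = 0.41). The change of *Gcg* did not pass at a minimum of 200 (adjusted p = 0.052), without the deeper CD70Tg Tconv library (adjusted p = 0.17) or without the shallower CD70Tg Treg library (adjusted p = 0.055).

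The 10 largest increases in CD70Tg Tregs were those of *Lrrc32*, *Cep112*, *Itgae*, *Frmd5*, *Neb*, *Ky*, *Stra6*, *Atp6v0d2*, *Nrn1* and *Il2ra*, with log2 differences from 4.80 to 5.47, and all 10 were called higher in control Tregs. *Nrn1*, which encodes neuritin, was at 3804 and 3372 in CD70Tg Tregs and at 107 and 136 in CD70Tg Tconvs, a difference of 4.83. *Neb*, which encodes the muscle protein nebulin, was at 3887 and 3127 against 70 and 104, a difference of 5.27, and in controls at 1519 and 2645 against 26 and 11. *Stra6*, a receptor for retinol-binding protein, was at 1108 and 968 against 38 and 15. The Treg libraries were the high group for all 10. For *Stra6*, which reached the minimum in Tregs only, the minimum fixed this direction. The gene segment *Ighj1* was among the 10 largest differences kept in both, at 1672 and 1648 in CD70Tg Tregs and 49 and 66 in CD70Tg Tconvs.

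The largest decreases were those of *Ggt5*, *Lypd6b*, *Cxcr6*, *Dntt*, *Ifitm10*, *Atp8b4*, *Lrrc75b*, *Ifitm1*, *Pde3b* and *Gm11695*, with log2 differences from -4.67 to -5.62, and 9 of the 10 were called lower in control Tregs. Without 1 library the difference ran from -6.46 to -4.78 for *Ggt5* and from -6.34 to -4.66 for *Lypd6b*. It ran from -5.96 to -3.83 for *Ifitm10*, from -5.83 to -3.69 for *Ifitm1* and from -5.51 to -3.83 for *Gm11695*. These 5 genes, *Dntt* and *Lrrc75b* had at most 3 reads in CD70Tg Tregs. They met the minimum only through their Tconv libraries, which fixed the direction of their calls. *Ggt5*, a gamma-glutamyltransferase that acts on leukotriene C4, was at 0 and 11 in CD70Tg Tregs and at 516 and 367 in CD70Tg Tconvs, against 0 and 0 and 584 and 705 in controls. *Lypd6b* was at 11 and 0 against 459 and 349, and *Dntt*, which encodes the template-independent polymerase of antigen receptor joining, at 0 and 6 against 266 and 227. These 3 genes had 2, 1 and 1 reads in CD70Tg Tregs, and their ratios in reads were 54.8-fold (95% counting interval 15.1 to 453), 103-fold (18.4 to 4.06e+03) and 65.1-fold (11.6 to 2.58e+03). *Ifitm1*, an interferon-induced membrane protein, differed from the rest of the group in that control Tconvs were also low. It was at 168 and 462 in CD70Tg Tconvs, 0 and 17 in CD70Tg Tregs and at most 10 in controls, and the change of its difference of -3.84 did not pass (adjusted p = 0.075).

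Markers of other cell types were present at unequal levels. The sum of 17 macrophage and granulocyte markers was 5092 to 5212 in CD70Tg Tregs and 1607 to 2177 in CD70Tg Tconvs, and 6018 to 6255 and 2053 to 2298 in controls. Of 10 tested members 9 were higher in CD70Tg Tregs and 0 lower, against 11.8% and 4.79% of all tested genes. *C1qa*, *C1qb*, *C1qc*, *Vcam1*, *Adgre1* and *Csf1r* were higher in Tregs of both kinds of mice, with CD70Tg differences from 1.28 to 2.17, while *Itgam* (377 and 381 against 93 and 80), *Lyz2* and *S100a9* were higher in CD70Tg Tregs alone, and these 3 differences changed towards Tregs, of which 1 passed with limma-voom. *Itgam* encodes CD11b of myeloid cells, and its change was 2.09 (adjusted p = 0.0085). That of *Lyz2* was 1.20 (adjusted p = 0.04) and held in 3 of 8 fits without 1 library, and its CD70Tg difference of 1.08 was 0.81 without the shallower CD70Tg Tconv library.

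The sum of 12 dendritic cell markers was 14831 to 16490 in CD70Tg Tregs and 4008 to 8256 in CD70Tg Tconvs, against 3353 to 4974 and 1625 to 3088 in controls. *Cd74*, the invariant chain of antigen presentation, made up most of it, at 10219 and 11239 in CD70Tg Tregs and 2651 and 5290 in CD70Tg Tconvs. Of 6 tested members 5 were higher in CD70Tg Tregs and 0 lower, against 11.8% and 4.79% of all tested genes. *Cd74* (1.52), *H2-Eb1* (1.65) and *Zbtb46* (2.80) were called under every alternative that gave a value, although *H2-Eb1* differed by 1.02 without the shallower and by 2.27 without the deeper CD70Tg Tconv library. *Cd209a* was at 0 and *Flt3*, *Clec9a*, *Siglech* and *Batf3* were at most at 32 in the CD70Tg Tregs, and *Zbtb46* was at 209 and 191. The class II gene *H2-Aa* lost its call without the shallower CD70Tg Tconv library (0.48, adjusted p = 0.37) and without either CD70Tg Treg library (adjusted p = 0.076 and 0.14), and *H2-Ab1* without the shallower CD70Tg Tconv library (0.85, adjusted p = 0.077). Erythroid markers summed to 2478 to 4109 in CD70Tg Tregs and 955 to 1003 in CD70Tg Tconvs. All 5 tested erythroid genes were higher in CD70Tg Tregs, against 11.8% of all tested genes, and 0 were higher in control Tregs, against 13.9%. The change of the difference towards Tregs passed for 0 of the 5 by limma or limma-voom, against 0.194% of all tested genes by limma, and for 4 at an unadjusted p under 0.05, against 3.21%. It passed for 3 without the deeper control Tconv library, against 0.162%, and for 4 without the deeper control Treg library, against 0.218%. Outside the lists and the rule for named genes, the change towards Tregs passed for *Slc4a1*, *Aqp1* and *Car2*, which red cells also express. It was 3.16, 3.06 and 2.25 in that order (adjusted p = 0.020, 0.011 and 0.0049, limma). They were picked after their values were seen. The neighbouring copies *Hba-a1* and *Hba-a2*, and *Hbb-bs* and *Hbb-bt*, can share reads. Without the shallower CD70Tg Treg library *Hbb-bs*, *Hbb-bt* and *Alas2*, which encodes an enzyme of haem synthesis, were not called (adjusted p = 0.061, 0.051 and 0.086), and *Alas2* was not called without either CD70Tg Tconv library (adjusted p = 0.067 and 0.05).

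B cell markers other than immunoglobulin genes summed to 615 to 632 in CD70Tg Tregs and 201 to 320 in CD70Tg Tconvs. Of 6 tested members of the whole list 5 were higher in CD70Tg Tregs and 1 lower, against 11.8% and 4.79% of all tested genes. *Cd79a* (1.92) and *Cd79b* (2.49), the signalling chains of the B cell receptor, and *Ighd* (4.39) were called under every alternative that gave a value. *Ms4a1*, a surface marker of B cells, was at 11 and 44 in CD70Tg Tregs, near the floor of 3 reads. The immunoglobulin gene *Ighm* was much higher, at 49097 and 48989 in CD70Tg Tregs and 11493 and 9945 in CD70Tg Tconvs, and the subsets were also apart in controls (difference 2.20 in CD70Tg and 1.70 in control mice). *Cd22* was the member lower in CD70Tg Tregs (-1.49), and was -1.08 with an adjusted p of 0.097 without the deeper CD70Tg Tconv library and -0.97 with 0.10 without the shallower CD70Tg Treg library. The T cell receptor complex and *Cd4* summed to 139982 to 143823 in CD70Tg Tregs and 178543 to 187604 in CD70Tg Tconvs, and 0 of its 12 genes were called between the subsets in either kind of mouse, where 11.8% and 4.79% of all tested genes were called in CD70Tg and 13.9% and 4.24% in control mice. Without the deeper CD70Tg Tconv library 1 of the 12 was lower in CD70Tg Tregs. The part of other cells in the differences between Tregs and Tconvs was not tested.

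**Figure D5:**
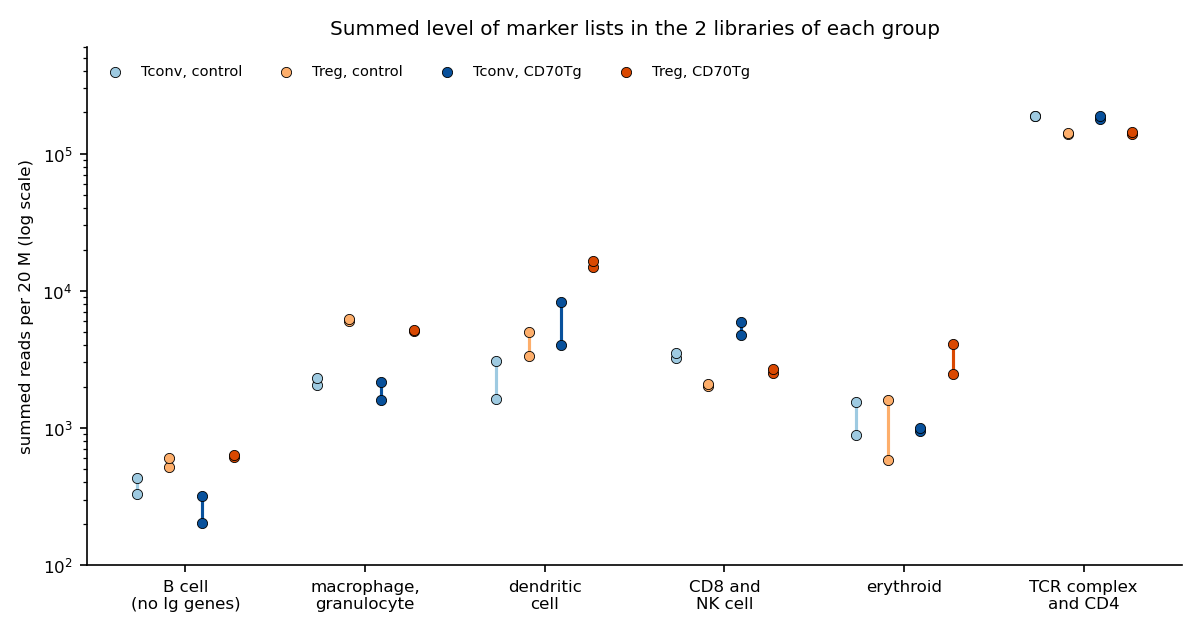
Summed values per 20 M reads (log axis) of 6 marker lists in each library, by group. Dendritic cell and erythroid markers are highest in CD70Tg Tregs, macrophage markers are higher in Tregs of both kinds of mice, and CD8 and NK markers are highest in CD70Tg Tconvs.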

How the data were processed

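RNA of 8 samples, 2 for each of control and CD70Tg Tregs and Tconvs, was sequenced from paired-end Ovation SoLo libraries. According to the submitters' notes and the study's methods, the authors trimmed reads with Trimmomatic 0.36, mapped them to mm10 with STAR 2.5.3 and counted them per gene with HTSeq 0.9.1. Whether strand was used is not given in the sources used here, so overlapping genes can share reads. The deposited values are scores, namely reads per 20 M rounded up to whole numbers, and not raw counts. Columns with KO in their name were treated as control libraries, which the labels call WT and the methods CD27+/-.

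Genomic positions are those of GENCODE M21 (GRCm38) by gene identifier. Clone-derived names (4131 rows) were left out, because in 6 of the 8 libraries only 3.2% to 50.9% of their low values followed the spacing of the library they stand in, against at least 99.8% for other rows. In the deeper Tconv library of each kind of mouse 1 read is worth about 1 or less, and the spacing cannot tell. Of the 97 names found on several rows, *Itgam* among them, the row with the highest total carries the name and the others stayed in the fit under their identifiers. The number of reads behind a value was recovered from the worth of 1 read, the step between low values. For the deepest CD70Tg Tconv library the step was under 1 and was taken from how often each low value occurred. Genes at 60 or more in at least 2 of the 4 CD70Tg libraries were tested with limma 3.58.1 (R 4.3.3) on log2(value + 5), with a trend, 1 coefficient per group, all 8 libraries in 1 fit and Benjamini-Hochberg adjustment over 12368 genes. Contrasts were Tregs against Tconvs in CD70Tg mice, the same in controls, and the change between them, called at an adjusted p under 0.05 (the first 2 also at an absolute log2 difference over 1). On simulated data of the CD70Tg comparison, with 12368 genes, the fit recovered 198 of 200 changed genes with 9 false calls. Counting intervals are exact at 95% and, like the floor of 3 reads, cover counting error only.

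Named genes were the tested members of 17 lists, and by rule the 10 genes with the largest increase, decrease, changed, lost and kept difference. Lost differences were ranked by their size in controls. Some members are not reported here and stand only in the counts and sums of their lists. The comparison, the gene lists and this rule were chosen with earlier results of these data known. Alternatives changed the pseudocount (1 or 20), the minimum value, the scaling, the libraries fitted and the thresholds, and included limma-voom on the recovered reads.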

Additional observations from a re-analysis of the deposited data

Results flagged for a closer look

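The difference between Tregs and Tconvs itself differed between CD70Tg and control mice, by the test of the change in limma, for 41 named genes. In 36 of them it moved towards Tconvs. On the log2 scale the change was -5.23 for *Adgrg1*, -4.31 for *Havcr2*, -3.88 for *4931431B13Rik*, -3.73 for *Itgad*, -3.72 for *Il10*, -3.62 for *Gcg*, -3.20 for *Car5b*, -3.16 for *Ccl3* and -3.10 for *Gzmb*. It was -2.62 for *Cd38*, -2.61 for *Entpd1*, -2.48 for *Camk2n1*, -2.45 for *Il1rl1*, -2.24 for *Rasgef1b*, -2.12 for *Runx2*, -2.11 for *Pdcd1* and -2.09 for *Klrg1*. Values between -1.91 and -1.76 were found for *Csf1* (-1.91), *Gprin3* (-1.91), *Bhlhe40* (-1.86), *Hip1* (-1.86), *Cst7* (-1.85) and *Zcchc18* (-1.76).

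Smaller changes towards Tconvs were those of *Bcl2* (-1.44), *Irf4* (-1.39), *Prdm1* (-1.38), *Gbp3* (-1.32), *Il12rb1* (-1.27), *Il10ra* (-1.17), *Ctla4* (-1.05), *Tox* (-1.01), *Itgb1* (-0.92), *Il2rb* (-0.91), *Ikzf3* (-0.91), *Tnfsf10* (-0.89) and *Itga4* (-0.79). The difference moved towards Tregs for 5 genes, by 4.50 for *Gda*, 4.49 for *S100a9*, 3.16 for *Il13ra1*, 2.09 for *Itgam* and 1.20 for *Lyz2*. Of the 41 changes, 18 passed in all 8 fits without 1 library, 22 with limma-voom on reads and 16 in both. The 16 were *Adgrg1*, *Havcr2*, *4931431B13Rik*, *Itgad*, *Car5b*, *Cd38*, *Entpd1*, *Il1rl1*, *Gprin3*, *Hip1*, *Cst7*, *Zcchc18*, *Bcl2*, *Prdm1*, *Gbp3* and *Itgam*. *Havcr2*, *Entpd1*, *Adgrg1* and *Bcl2* passed under every alternative.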

How the results depend on the processing

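No called difference of a named gene changed sign under any alternative. With no minimum value 2241 genes were higher in CD70Tg Tregs, 1425 differences were called in CD70Tg mice alone and 6 changed, and with at least 200 in 2 CD70Tg libraries 810 were higher, 380 lower, 915 called the same way in both and 268 in CD70Tg mice alone. Without the threshold on size, 2777 were higher, 2533 lower, 4058 called the same way, 1578 called in controls alone and 1224 in CD70Tg mice alone. Changed differences numbered 63 with limma-voom and 47 at an adjusted p under 0.01. In fits without 1 library, in which a lone library is assumed to vary like the other groups, genes higher in CD70Tg Tregs ranged from 1230 to 1531, lower from 467 to 664, called the same way from 1276 to 1471, in controls alone from 612 to 942, in CD70Tg mice alone from 519 to 772 and changed from 59 to 273. Of 162 named CD70Tg calls, 134 passed under every alternative, and the fold of 23 moved by over 1.5 times without 1 library, 17 of them called in all 8 such fits. No paired analysis was possible because the replicate numbers in the sample titles are absent from the column names, and columns were not matched to titles by their order. Depth is 1 limit. At 1.90 and 3.65 M reads, CD70Tg Tregs could not show genes below their floors of 31.3 and 16.3, and the cause of the shifts without 1 library was not tested.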
